A study of Mus musculus with 6 samples.

Results

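The miR-148 and miR-152 family of the mouse consists of 3 hairpin genes, miR-148a, miR-148b and miR-152, and both arms of each were followed here, which gave 6 mature microRNAs of the 1915 in the deposited count table. They were chosen by name, and each had a single entry in the table. All 6 passed the filter on low counts, which kept 525 microRNAs. The libraries came from iBN cells, which the labels describe as granulocyte-macrophage progenitors and which carry a PU.1-inducible system. PU.1 is the transcription factor, encoded by Spi1, that directs progenitors into the myeloid lineages. Uninduced cells (3 libraries) were compared with cells kept for 72 hours in doxycycline at 1000 ng/ml (3 libraries). A culture time was recorded only for the induced libraries, so an effect of time in culture was not tested. Both groups carried the inducible system, and both were suspension cultures in medium with GM-CSF and serum. Each group held trials 1, 2 and 3. Doxycycline-treated cells without the inducible gene were not analysed here, so an effect of the drug and an effect of PU.1 cannot be told apart. The level of Spi1 was not read by this assay.

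A microRNA hairpin is cut by Drosha and then Dicer into a short duplex, and an Argonaute protein keeps mainly one strand, from the 5p or the 3p side of the stem. The bases near the 5′ end of the kept strand, the seed, pair with target messenger RNAs and repress them. The 3p strands of this family share a seed and are known for repressing Dnmt1, the maintenance DNA methyltransferase. miR-148a has been described in B cells and in the liver, where it limits cholesterol uptake by repressing the LDL receptor.

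The mature sequences show which members can act on the same targets. They are written 5′ to 3′ with the seed, bases 2 to 8, in capitals, and come from RefSeq with the GRCm38.p6 build.
mmu-miR-148a-3p: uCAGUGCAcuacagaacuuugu
mmu-miR-148b-3p: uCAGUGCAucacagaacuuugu
mmu-miR-152-3p: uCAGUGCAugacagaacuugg
mmu-miR-148a-5p: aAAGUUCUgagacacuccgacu
mmu-miR-148b-5p: gAAGUUCUguuauacacucaggcu
mmu-miR-152-5p: uAGGUUCUgugauacacuccgacu

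All 3 of the 3p arms had the seed CAGUGCA and began with U. Counted from the 5′ end, miR-148a-3p and miR-148b-3p differed only by C9U and U10C, just behind the seed, with 20 of 22 bases identical. miR-148b-3p and miR-152-3p differed by C10G and U20G over 21 aligned bases. The 5p arms were less alike. miR-148a-5p and miR-148b-5p shared the seed AAGUUCU but matched at 13 of 22 bases, and miR-152-5p had the seed AGGUUCU. The arms of the family's 5p side also began with different bases, A in miR-148a-5p, G in miR-148b-5p and U in miR-152-5p. Because the 3p arms differ at 2 or 3 bases, reads could pass between them if mismatches were allowed in counting, a setting not given in the sources used here. The level of miR-148b-3p was 6.31% to 8.45% of that of miR-148a-3p across libraries, so even a small share of misassigned miR-148a-3p reads would weigh on it. Against miR-152-3p, which differs from it at 3 bases, miR-148a-3p had 326 to 433 reads per read. A still smaller share would thus weigh on the level of miR-152-3p and on the arm ratio of its hairpin.

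The hairpins show where the arms sit in each precursor. They are written with both mature arms in capitals, 5p first, and the bases between the arms, the loop side, in lower case.
miR-148a hairpin: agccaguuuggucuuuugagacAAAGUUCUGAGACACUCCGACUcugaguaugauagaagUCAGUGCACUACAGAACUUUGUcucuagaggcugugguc
miR-148b hairpin: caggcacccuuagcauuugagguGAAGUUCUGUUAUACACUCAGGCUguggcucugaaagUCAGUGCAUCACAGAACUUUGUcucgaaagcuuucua
miR-152 hairpin: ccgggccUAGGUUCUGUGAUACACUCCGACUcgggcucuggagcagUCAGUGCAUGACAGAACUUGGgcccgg

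The 3 hairpins lie on different chromosomes of GRCm38, the assembly also called mm10. The miR-148a hairpin is on the minus strand of chromosome 6 from 51269812 to 51269910, outside any gene that GENCODE annotates as other than a microRNA, 162760 bp from Nfe2l3, the nearest protein-coding gene. The miR-148b hairpin is on the plus strand of chromosome 15 from 103285125 to 103285221, in an intron of Copz1. The miR-152 hairpin is on the plus strand of chromosome 11 from 96850393 to 96850465, in an intron of Copz2. Copz1 and Copz2 are paralogues that encode zeta subunits of the COPI vesicle coat, and both hairpins lie on the strand of their host gene. Each of the 3 hairpins also had a gene of the Nfe2 family of transcription factors among its 2 nearest protein-coding genes outside the host, Nfe2l3 beside miR-148a, Nfe2 at 26722 bp from miR-148b and Nfe2l1 at 20425 bp from miR-152. Neither the host transcripts nor these neighbours were measured here.

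The libraries held 8697384 to 13946613 reads after duplicate entries of a name were dropped. The family took 7.39% ± 0.51 of the reads uninduced and 6.61% ± 0.55 induced (SD, n = 3 each), with 598146 to 956729 reads a library. Myeloid marker microRNAs (miR-223-3p, miR-155-5p, miR-146a-5p and both arms of miR-142a) were all detected, at a summed level of 71738 to 90747 CPM (reads scaled to library size) uninduced and 74242 to 91845 CPM induced. Most of this sum was miR-142a, whose 5p and 3p arms averaged 61398 and 10231 CPM uninduced. The uninduced means were 6513 CPM for miR-223-3p, 777 CPM for miR-155-5p and 4.43 CPM for miR-146a-5p. Lymphoid markers (3 microRNAs, mostly miR-181a-5p) were also abundant, at a summed 36937 to 39213 CPM uninduced and 28925 to 36943 CPM induced. Erythroid markers (4 microRNAs) summed to 22.9 to 36.5 CPM and 37.5 to 40.3 CPM. The defining markers of liver (miR-122-5p), muscle (3 microRNAs) and brain (2 microRNAs) were too rare to test, with summed levels of at most 0.222 and 0.224 CPM for liver, 0.275 and 0.367 CPM for muscle and 0.458 and 1.46 CPM for brain in the 2 groups. In these bulk samples, fewer cells with a microRNA and less of it per cell cannot be told apart. The summed level of 7 epithelial markers was 32.2 to 39.8 CPM uninduced and 81.2 to 101 CPM induced, and that of 4 stromal markers was 229 to 270 CPM and 145 to 215 CPM. Of the 5 epithelial markers that could be tested, 3 passed edgeR and 4 passed with the trial as a block. Of the 3 stromal markers that could be tested, 1 passed and 3 did with the block. Among all tested microRNAs, 6.1% passed edgeR and 21.7% did with the block. With the block 1 of the 5 myeloid markers, miR-146a-5p, was called higher (log2 change 0.56, edgeR adjusted p = 0.037, against 0.123 without it), and 0 of 5 passed without it. Their part in the family's values was not tested. Nothing in the labels ties the trials to separate cultures, and the p-values therefore speak only for the spread among these 6 libraries, which may be technical.

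miR-148a-3p was by far the most abundant member. Its level, in CPM scaled with TMM factors, was 65734, 60872 and 76950.2 CPM in uninduced trials 1, 2 and 3 and 49864, 64748 and 62518 CPM in the induced libraries of the same trials. The groups overlapped, with the lowest value in induced trial 1 and the highest in uninduced trial 3. It averaged 67852 CPM ± 8246 without and 59043 CPM ± 8028 with doxycycline (SD, n = 3 each). It ranked 4 and 5 among all names, with the highest entry kept per name. Its log2 change with induction was -0.20 (SE 0.13, edgeR adjusted p = 0.416). It was lower in 2 of 3 trials.

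miR-148b-3p, its nearest relative in sequence, had 4147, 3924 and 5421 CPM uninduced and 4211, 4412 and 5179.6 CPM induced in trials 1, 2 and 3. The induced values lay inside the uninduced range, and trial 3 was highest in both. Its log2 change was 0.03 (SE 0.15, edgeR adjusted p = 0.909). miR-152-3p was the rarest of the seed-sharing arms, with 152, 164 and 185 CPM uninduced and 141, 199 and 151 CPM induced. Its lowest and highest values were both in induced libraries, and its log2 change was -0.03 (SE 0.16, edgeR adjusted p = 0.943).

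On the 5p side, miR-148a-5p had 1872, 1062 and 1685 CPM uninduced and 1703, 1460.4 and 1789 CPM induced. Uninduced trial 2 stood lowest, and the induced values lay inside the uninduced range. The log2 change was 0.10 (SE 0.20, edgeR adjusted p = 0.823). miR-148b-5p, which shares its seed, had 376, 352 and 395 CPM uninduced and 392, 331 and 464 CPM induced, a log2 change of 0.08 (SE 0.15, edgeR adjusted p = 0.813). Here the induced libraries spread on both sides of the uninduced ones.

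miR-152-5p was the only member that was higher in every trial. It had 124, 110 and 146 CPM uninduced and 159, 136 and 161 CPM induced, so that uninduced trial 3 still lay above induced trial 2 and the groups overlapped. Its log2 change was 0.26 (SE 0.15, edgeR adjusted p = 0.369). With the trial as a block in the fit, its adjusted p was 0.0507 (edgeR, log2 change 0.27, SE 0.09), just short of the threshold of 0.05. Among all 525 tested microRNAs, 29% were higher in all 3 trials, so this alone does not set it apart.

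**Figure D1:**
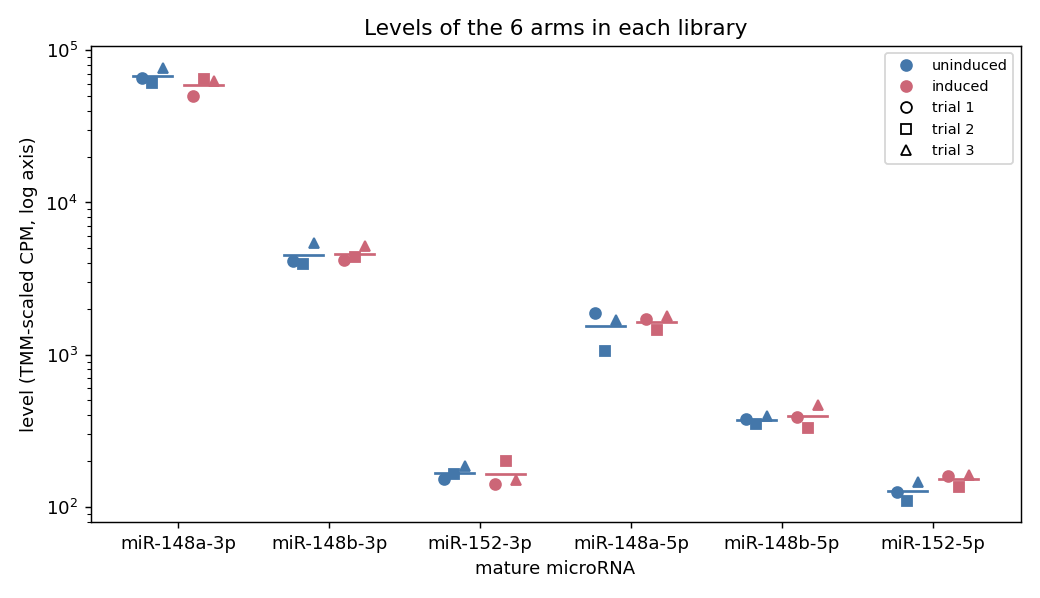
Levels of the 6 arms in each library, in TMM-scaled CPM on a log axis, with uninduced libraries in blue, induced in red, a marker shape per trial and a line at each group mean. miR-148a-3p lies between 49864 and 76950.2 CPM, above every other arm, and the groups overlap for each arm.

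In all, 0 of the 6 members passed edgeR's quasi-likelihood test at an adjusted p of 0.05, against 6.1% of all tested microRNAs (32 of 525). None reached an unadjusted p under 0.05 in that fit (0 of 6, against 20.8% of all tested), and DESeq2 and limma-voom also called 0 of 6, against 7.05% and 4.19% of all. With the trial as a block edgeR called 0 of 6 members, against 21.7% of all tested, and 1 of 6, miR-152-5p, had an unadjusted p under 0.05, against 37.1%. The groups overlapped for all 6, whereas they did not overlap for 27.6% of all tested. The median log2 change was 0.06 over the members and 0.02 over all tested microRNAs. The intervals of 2 SE around the log2 changes ran from -0.46 to 0.06 for miR-148a-3p, from -0.26 to 0.32 for miR-148b-3p and from -0.35 to 0.30 for miR-152-3p. On the 5p side they ran from -0.29 to 0.49 for miR-148a-5p, from -0.22 to 0.38 for miR-148b-5p and from -0.04 to 0.56 for miR-152-5p. A change of 2-fold, a log2 value of 1, thus lay outside the interval of every member.

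**Figure D2:**
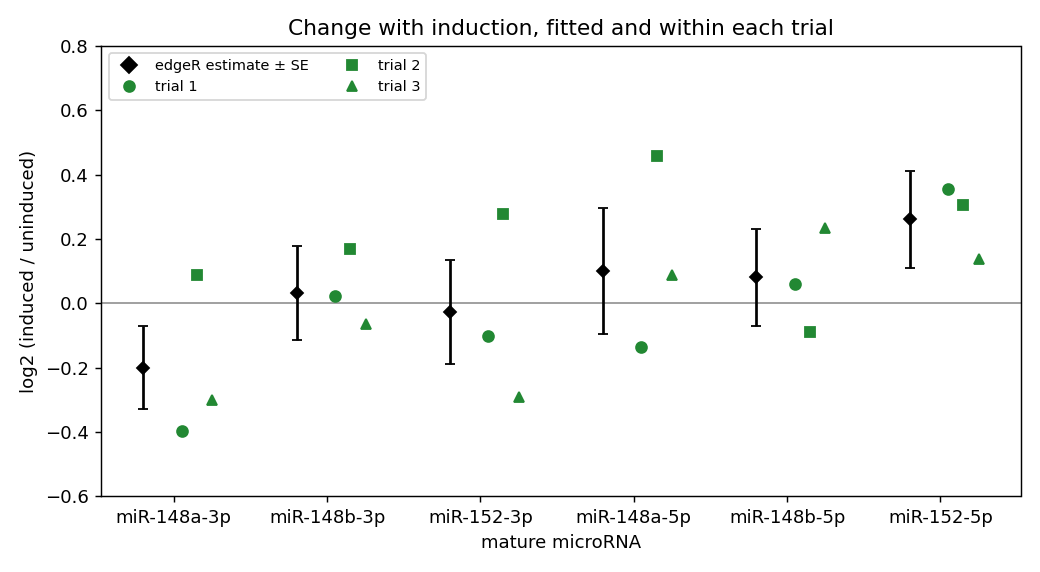
Log2 change with induction for each arm, as the edgeR estimate with its SE (black diamonds) and as the difference within each trial (green, a shape per trial). miR-152-5p lies above 0 in all 3 trials, and the other arms have trials on both sides of 0.

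The change of miR-148a-3p rested on trials 1 and 3, where it was -0.40 and -0.30 on the log2 scale, while trial 2 gave 0.09. Without trial 2, the blocked fit gave -0.35 (SE 0.05, edgeR adjusted p = 0.0089), the only one of the fits run that called a member. Trial 2 was also the trial in which miR-148a-5p and miR-152-3p had their highest changes, 0.46 and 0.28. The log2 differences within trials thus ran from -0.40 to 0.46 over the family.

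The pooled level of the family's seed was set almost wholly by miR-148a-3p. Summed over the 3p arms, it was 70032, 64960 and 82555 CPM in uninduced trials 1, 2 and 3 and 54216, 69359 and 67848 CPM in the induced libraries. The induced mean of 63808 CPM ± 8341 was 0.880 times the uninduced mean of 72516 CPM ± 9057 (SD, n = 3 each). The difference was about as large as the SD within a group, and the groups overlapped. The pool was lower in 2 of 3 trials, those in which miR-148a-3p was lower. A sum over the members was given no test.

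Of this pool miR-148a-3p supplied 93.6% ± 0.34 uninduced and 92.5% ± 0.75 induced (SD, n = 3 each). miR-148b-3p supplied 6.18% ± 0.34 and 7.25% ± 0.78, and miR-152-3p 0.231% ± 0.019 and 0.257% ± 0.032. By library, the share of miR-148a-3p was 93.9%, 93.7% and 93.2% uninduced and 92.0%, 93.4% and 92.1% induced, lower in each trial after induction although the groups overlapped.

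Ratios between paralogues, which do not depend on the scaling of libraries, were compared as 3 pairs. miR-148a-3p had 15.9, 15.5 and 14.2 reads per read of miR-148b-3p uninduced and 11.8, 14.7 and 12.1 induced in trials 1, 2 and 3. The ratio was lower in 3 of 3 trials, and induced trial 2 lay above uninduced trial 3. The log2 difference was -0.25, with a two-sided exact permutation p of 0.20 (adjusted over the 3 pairs 0.30). Against miR-152-3p the ratio was 433, 372 and 417 uninduced and 353, 326 and 414 induced, with a log2 difference of -0.17 and an exact permutation p of 0.20 (adjusted 0.30). It was also lower in 3 of 3 trials, but in trial 3 by only 0.01 on the log2 scale. Without induced replicate 2 the log2 difference was -0.089, and without induced replicate 3 it was -0.26. The ratio of miR-148b-3p to miR-152-3p had a log2 difference of 0.08 (exact permutation p = 0.70, adjusted 0.70). With 3 libraries against 3 these tests cannot go below 0.10, and a sign-flip test over the 3 trials cannot go below 0.25, the value it gave for both ratios of miR-148a-3p.

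The levels fell in the same order in both groups. miR-148a-3p averaged 15.1 times the level of miR-148b-3p uninduced and 12.8 times induced, followed by miR-148a-5p, miR-148b-5p, miR-152-3p and miR-152-5p. Neighbours in this order had separate ranges in each group except at the end, where miR-152-3p and miR-152-5p overlapped in the induced libraries. The mature sequences are 21 to 24 bases long, so CPM needs no correction for length, but adapter ligation favours some end sequences, and levels of different arms are therefore approximate.

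Set among all seeds, the family's seed was among the most abundant of these cells. RefSeq gave sequences for 1623 of the 1915 names, with 92.4% of the reads and 1352 distinct seeds, and CAGUGCA ranked 4 in both groups. The seeds above it were those led by miR-146b-5p, miR-191-5p and miR-92a-3p, and the seed of the let-7 family, spread over 9 microRNAs of at least 1 CPM, came next uninduced, at 69055 CPM ± 3284 (SD, n = 3). Induced, the miR-142a-5p seed came next at 63535 CPM ± 11123 against 63808 CPM ± 8341 for CAGUGCA (SD), a near tie. Keeping the highest entry per name dropped 17.5% of the table. The members had 1 entry each, so only other names could lose reads, and ranks with entries summed are not given here. No other name with a RefSeq sequence had the seed CAGUGCA. The 5p seed AAGUUCU, summed over miR-148a-5p and miR-148b-5p, stood at 1914 CPM ± 441 without and 2046 CPM ± 235 with doxycycline (SD, n = 3 each), ranks 31 and 33. AGGUUCU was carried by miR-152-5p alone.

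The miR-130 and miR-301 family carries the same bases AGUGCA moved by 1 position towards the 5′ end, as these sequences show with bases 2 to 8 in capitals.
miR-130b-3p: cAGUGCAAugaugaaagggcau
miR-301a-3p: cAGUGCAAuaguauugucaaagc
The 7 names whose RefSeq sequence holds this shifted match, which do not include miR-301b-3p, summed to 4251 CPM ± 364 without and 4468 CPM ± 295 with doxycycline (SD, n = 3 each), and the CAGUGCA pool stood 15.6 times higher over all libraries. Of these 7 names 3 could be tested, and 0 passed edgeR, without the block or with it. In the unblocked fit 0 reached an unadjusted p under 0.05. The shares of the 525 microRNAs that met these 3 criteria were 6.1%, 21.7% and 20.8%, in that order. Counts of 0 among only 3 names therefore cannot tell them from the rest.

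The arms of the 3 hairpins were kept in very different proportions. The miR-148a hairpin gave 35.1, 57.3 and 45.7 3p reads per 5p read in uninduced trials 1, 2 and 3 and 29.3, 44.3 and 34.9 in the induced libraries. The miR-148b hairpin gave 11.0, 11.2 and 13.7 uninduced and 10.7, 13.3 and 11.2 induced. The miR-152 hairpin was close to even, with 1.22, 1.49 and 1.26 uninduced and 0.888, 1.46 and 0.938 induced, so that its 5p arm was the more abundant in 2 of 3 induced libraries and in 0 of 3 uninduced ones. Across the 150 hairpins with both arms tested, the median ratio of the more to the less abundant arm was 9.17, and 20.7% had arms within 2-fold of each other. miR-152 was number 7 in evenness, whereas miR-148a was more one-sided than the median hairpin.

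After induction the 3p share of the miR-148a hairpin was lower in each trial. The log2 change of its 3p over 5p ratio was -0.26, -0.37 and -0.39 in trials 1, 2 and 3, with a mean of -0.34. Trial 2 had the highest ratio in both groups and trial 1 the lowest, so the groups overlapped while every trial moved the same way. The groups did not overlap for 6% of hairpins and overlapped for all 3 of the family. The miR-152 hairpin was also lower in each trial, by -0.46, -0.03 and -0.43, with a mean of -0.30, but hardly in trial 2. The miR-148b hairpin moved by -0.04, 0.26 and -0.30, with a mean of -0.03 and no common direction. Over all hairpins the median change was 0.02, and 20% of hairpins were lower in all 3 trials.

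Whether these arm changes passed depended on the pairing by trial. Without it, limma called 0 of 150 hairpins (0%), and 5 (3.33%) had an unadjusted p under 0.05. The adjusted p was 0.984 for each of the 3 family hairpins. With the trial as a block limma called 13 of 150 (8.67%), 5 of them (3.33% of all) lower and 8 higher in the 3p over 5p ratio. The family's part of these was miR-148a (-0.34, SE 0.06, limma adjusted p = 3.0e-05) and miR-152 (-0.30, SE 0.10, limma adjusted p = 0.041), while miR-148b did not pass (-0.03, SE 0.09, limma adjusted p = 0.930). The call of miR-148a held when both libraries of trial 1, 2 or 3 were left out, with limma adjusted p = 1.1e-04, 9.2e-04 and 0.0090. That of miR-152 was lost without trial 1 (limma adjusted p = 0.490) and without trial 3 (limma adjusted p = 0.463). Over all hairpins, the fits without trial 1, 2 and 3 called 2, 14 and 6. Each kept limma's trend of the spread on arm level, so they do not check that setting. With so few libraries, their p-values also rest mostly on the spread that limma shares across hairpins. They are therefore no independent check of the miR-148a call. Both calls also depended on the settings of limma, tried one at a time after seeing the data. A blocked fit without the trend of the spread on arm level called 1 hairpin of 150 (0.667%) and gave limma adjusted p = 0.182 for miR-148a and 0.331 for miR-152. A blocked fit that kept the trend but dropped robust estimation called 4 of 150 (2.67%), with limma adjusted p = 9.1e-04 for miR-148a and 0.093 for miR-152. With both dropped, 1 of 150 (0.667%) was called and neither hairpin passed.

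**Figure D3:**
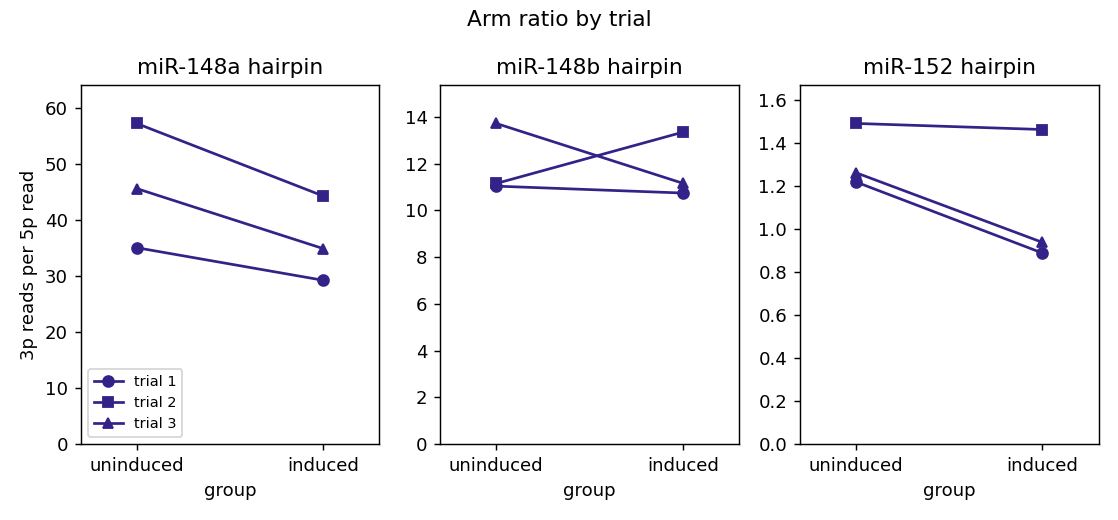
Reads of the 3p arm per read of the 5p arm for each hairpin, uninduced and induced, with a line per trial and each vertical axis from 0. All 3 lines fall for miR-148a (from 35.1, 57.3 and 45.7 to 29.3, 44.3 and 34.9) and for miR-152, where trial 2 is nearly flat, and they cross for miR-148b.

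The change in the miR-148a ratio came with a lower 3p arm and a higher 5p arm on average, at -0.20 and 0.10 on the log2 scale, neither of which passed alone. In trial 1 both arms were lower (-0.40 for 3p and -0.14 for 5p), in trial 2 both were higher (0.09 and 0.46), and in trial 3 the 3p arm was lower (-0.30) and the 5p arm higher (0.09). In the miR-152 hairpin the mean change lay mostly in the 5p arm, at 0.26 against -0.03 for the 3p arm. By trial, the 5p arm changed by 0.36, 0.31 and 0.14 and the 3p arm by -0.10, 0.28 and -0.29. In trial 3 the 3p arm thus moved more than the 5p arm. Isomer lengths and the ends of reads are not in the table, so the arms were compared only as whole counts.

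**Figure D4:**
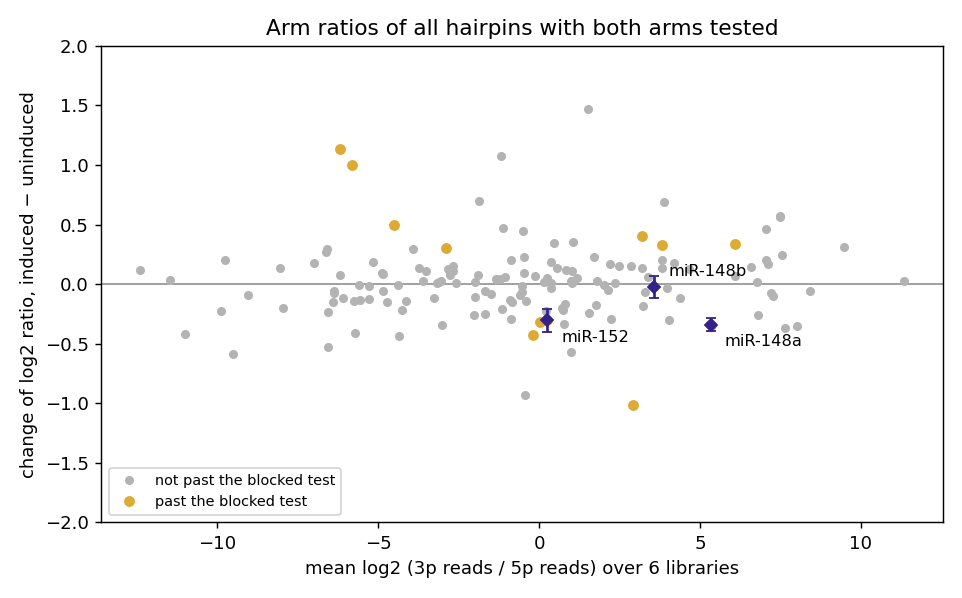
Change of the log2 3p over 5p ratio with induction against its mean over the 6 libraries for the hairpins with both arms tested (1 of 150, miR-342, lies beyond the axis limit of 2), with the SE of the blocked limma fit on the 3 family hairpins. The family hairpins lie at -0.34 (miR-148a), -0.30 (miR-152) and -0.03 (miR-148b).

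Across the 6 libraries the members did not move as a unit. As a description without a test, the log2 CPM of miR-148a-3p correlated with that of miR-152-3p by 0.66, of miR-148b-3p by 0.57 and of its own 5p arm by 0.09 (Pearson's r, 6 libraries that share depth and trial). The 5p arms correlated with each other by 0.57 to 0.70, and miR-152-3p with miR-152-5p by -0.22. Among the other 164 microRNAs of at least 100 CPM, the levels most like those of miR-148a-3p were miR-181b-5p (r = 0.98), miR-192-5p (r = 0.94) and miR-24-3p (r = 0.90). Their log2 changes of -0.14, -0.24 and -0.07 did not pass edgeR either (adjusted p = 0.508, 0.242 and 0.809).

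Other microRNAs reported to target DNA methyltransferase transcripts were read from the same fit. Of 8, all tested, 1 was called higher and 0 lower, against 6.1% of all tested microRNAs, and their median log2 change was -0.07. The called one was miR-342-3p, reported to target Dnmt1 and made from an intron of Evl, with 19.4 CPM ± 0.38 induced against 0.04 CPM ± 0.06 uninduced (SD, n = 3). The filter on low counts could keep a microRNA so rare without induction only if it was higher with it, so its direction was fixed by the filter and its call is no support. The other 7 did not pass. With the block 2 of 8, miR-342-3p included, were called higher and 1 lower, against 21.7% of all tested called in either direction. miR-185-5p, also reported for Dnmt1, had 0.44 (SE 0.10, edgeR adjusted p = 0.0085), and miR-143-3p, reported for Dnmt3a, had -0.40 (SE 0.09, edgeR adjusted p = 0.0082). miR-29a-3p, the most abundant of the list at 1403 CPM ± 221 uninduced (SD, n = 3) and reported for Dnmt3a and Dnmt3b, had -0.06 (SE 0.14, edgeR adjusted p = 0.844). The CAGUGCA pool thus stood well above every other microRNA of this list in both groups.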

How the data were processed

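The values used are the raw read counts the authors deposited, in 2061 entries of a mature microRNA and a precursor. The authors also deposited CPM, which equal the counts over the column total within 0.005 and were not used for tests. The tools named per the submitters' processing notes are Trim Galore 0.4.0 and DESeq2 (listed as 2.1.8.0), with mm10, and per the series' design text reads were aligned to miRBase; for the counter, mismatches, multiple matches and strand, the setting is not given in the sources used here. Without molecular identifiers, PCR copies count as reads. The highest entry was kept per name, which left out 17.5% of the table.

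The test of levels was that of edgeR 4.0.16 under R 4.3.3 (filterByExpr, TMM, robust quasi-likelihood test, two-sided, Benjamini-Hochberg at 0.05 over 525 microRNAs), with the group as the only term. DESeq2 1.42.0 and limma-voom were alternatives. Arm ratios, log2 of (3p + 0.5) over (5p + 0.5) counts, were tested with limma 3.58.1 (trend, robust) over 150 hairpins whose arms share a name. Both tests were also run on simulated data without a trial effect, in the form without the block. The blocked fits were not tested in this way.

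The labels number trials 1, 2 and 3 in both groups. Deviations from the group means correlated within trials by 0.33, 0.45 and 0.53, each over 0.1, and between unlike trials by -0.45 to 0.04. The trials were therefore taken to pair the libraries, and blocked values or counts are given where they change a call. This pairing was judged from the same counts that the blocked fits test, and the blocked p-values rest on it. Because deviations were taken from means of 3 libraries, positive correlations within trials push those between unlike trials below 0. The values between unlike trials are thus no separate support for the pairing. The members, lists and tests were chosen with earlier results of these data known. Named microRNAs are the members, the 3 most like miR-148a-3p, the list reported for DNA methyltransferases and those with a related seed; the leaders of other seeds and the genes beside the hairpins were named after the values were seen. Of the erythroid and lymphoid markers, 1 and 3 could be tested. Of these 0 passed edgeR, and with the block 1 did, the lymphoid miR-181a-5p (log2 change -0.30, edgeR adjusted p = 0.025, against 0.211 without it). Calls made up 6.1% of the whole unblocked fit and 21.7% of the blocked one. Lists this small therefore cannot show whether the markers stayed stable.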

Additional observations from a re-analysis of the deposited data

How the results depend on the processing

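The count of called microRNAs went from 32 to 114 with the replicate block, ran from 12 (without uninduced replicate 1) to 41 when 1 library was left out, and was 66, 60 and 12 in blocked fits without trial 1, 2 and 3. The count of called members stayed at 0, except for 1 in the blocked fit without trial 2. The arm ratios of miR-148a (-0.34) and miR-152 (-0.30) passed with the block. They also passed with the block over hairpins with both arms at 10 CPM or more (limma adjusted p = 9.8e-07 and 0.014). That fit was added after seeing the data and called 11 hairpins in all. Neither ratio passed in the blocked fit without the trend, also added after seeing the data (limma adjusted p = 0.182 and 0.331). With 1 library left out and no block, the log2 change of the arm ratio ran from -0.52 to -0.17 for miR-148a, from -0.12 to 0.076 for miR-148b and from -0.53 to -0.17 for miR-152. In blocked fits without 1 trial it was -0.38, -0.32 and -0.32 for miR-148a, and it reached 0.11 for miR-148b without trial 3 and -0.44 for miR-152 without trial 2. Small changes turned sign. With 1 library left out, the log2 change ran from -0.097 to 0.19 for miR-148b-3p, from -0.20 to 0.071 for miR-152-3p, from -0.095 to 0.25 for miR-148a-5p and from -0.087 to 0.18 for miR-148b-5p, and the log2 ratio of miR-148b-3p to miR-152-3p from -0.059 to 0.25. Blocked, it was -0.026 for miR-148b-3p and -0.029 for miR-148a-5p without trial 2, and 0.075 for miR-152-3p and -0.028 for miR-148b-5p without trial 3. miR-148a-3p (-0.35 to -0.09) and miR-152-5p (0.18 to 0.37) kept their sign in 17 alternatives each, and the pooled seed level in 9 (-0.26 to -0.07). The causes were not tested. Read counts are high for each member, and the spread between libraries limits precision more than depth does.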
